A study of Drosophila melanogaster with 16 samples.

Results

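The peaks described here were regions of the *Drosophila* genome at which significant Psi enrichment met significant enrichment of both RNA polymerase and Myc in the larval wing disc. A peak of the Psi list was a member when it overlapped, by 1 bp or more, a peak of the RNA polymerase (Pol) list and a peak of the Myc list. Of the 1710 Psi peaks, 415 (24.3%) met this rule. A further 297 Psi peaks overlapped a Pol peak without a Myc peak, 306 overlapped a Myc peak without a Pol peak, and 692 overlapped neither. The members were chosen by the measured peaks themselves, so the overlap and the scores below are a description.

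Binding was profiled with Targeted DamID (TaDa), in which a protein of interest carries Dam, a bacterial enzyme that methylates adenine in GATC sites close to where the protein contacts DNA. All animals carried *sd*-GAL4 with temperature-sensitive GAL80, and differed in the UAS transgene: Psi-Dam, Myc-Dam, Dam fused to the polymerase subunit RpII18 (Pol-Dam), or Dam alone. There were 3 samples of each fusion and 7 samples of Dam alone, all from wing discs of mid-third instar female larvae. Eggs came from lays of under 4 h at 25°C. The 7 days at 18°C that followed kept the transgenes off, and 24 h at 29°C then switched them on. Only cells in which *scalloped* drives GAL4 express Dam, so the peaks describe those cells and not every cell of the disc. RpII18 is shared by all 3 nuclear RNA polymerases, so a Pol peak does not tell them apart. Dam-only sample 1 was the control of 2 Psi samples and of 1 Pol sample, whereas the Myc samples had controls of their own. Each list was called by the authors on the average of the 3 samples of a fusion, so no value has a replicate error and no difference between sets of peaks was tested. Wilson 95% intervals are given for shares and cover counting error only.

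Psi (P-element somatic inhibitor) is a KH-domain protein of the FUBP family that binds single-stranded nucleic acid and acts in both splicing and transcription. Myc is a basic helix-loop-helix transcription factor that, with its partner Max, binds E-box DNA and drives growth, and RNA polymerase marks transcribed genes. The wing disc is the epithelium from which the adult wing grows, patterned by Wg, Dpp, Hedgehog, Notch and EGFR signals and held in size by the Hippo pathway. Members near genes of these pathways are described after the peaks themselves.

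The DNA that all 3 lists held in common is shown first, because a DamID peak is read in GATC fragments and the sequence shows where its limits can lie. The 4 windows that follow are the central 300 bases of the stretch common to a Psi, a Pol and a Myc peak, on the plus strand of BDGP6, for the members with the highest Psi scores. Members whose window held untranslated exon, and those on an arm whose sequence is not shown, were passed over, among them the members at *Psi* and *dob*. Capitals mark GATC, the E-box CACGTG, and the repeats GAGAGAGA and ACACACAC on either strand. The mir-9a and Uhg2 windows, named for the RNA genes that their Psi peaks overlapped, lay outside protein-coding genes, and the *zld* and *pyd* windows lay entirely in introns.
mir-9a window, chr3L:19561903-19562202: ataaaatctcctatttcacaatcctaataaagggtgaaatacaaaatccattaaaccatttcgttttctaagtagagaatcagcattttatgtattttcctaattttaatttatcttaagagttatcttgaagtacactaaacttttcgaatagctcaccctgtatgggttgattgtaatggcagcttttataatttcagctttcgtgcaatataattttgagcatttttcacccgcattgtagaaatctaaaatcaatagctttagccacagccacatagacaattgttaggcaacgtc
Uhg2 window, chr2L:9894073-9894372: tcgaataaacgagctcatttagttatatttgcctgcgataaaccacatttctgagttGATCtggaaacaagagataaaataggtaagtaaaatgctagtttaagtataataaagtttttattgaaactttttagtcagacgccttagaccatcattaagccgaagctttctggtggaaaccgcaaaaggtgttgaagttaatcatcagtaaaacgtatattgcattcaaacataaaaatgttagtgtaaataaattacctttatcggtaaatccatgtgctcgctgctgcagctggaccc
zld window, chrX:19773279-19773578: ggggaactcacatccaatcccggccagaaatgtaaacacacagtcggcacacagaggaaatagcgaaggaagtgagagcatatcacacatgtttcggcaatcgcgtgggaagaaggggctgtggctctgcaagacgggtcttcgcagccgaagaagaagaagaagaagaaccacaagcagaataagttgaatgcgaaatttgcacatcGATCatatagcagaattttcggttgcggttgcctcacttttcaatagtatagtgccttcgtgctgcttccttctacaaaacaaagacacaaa
pyd window, chr3R:8854792-8855091: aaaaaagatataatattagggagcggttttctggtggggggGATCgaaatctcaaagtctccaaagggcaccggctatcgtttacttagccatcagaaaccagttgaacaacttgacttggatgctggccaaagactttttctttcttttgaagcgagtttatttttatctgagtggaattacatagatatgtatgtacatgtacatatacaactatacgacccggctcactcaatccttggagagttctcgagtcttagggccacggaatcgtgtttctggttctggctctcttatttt

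The next 4 windows belong to the members with the highest Psi scores among those with a CACGTG hexamer in the window, the sequence that Myc and Max are known to bind. The windows at *chas* and *skd* were intronic, and the other two lay outside protein-coding genes.
lncRNA:CR45754 window, chr3L:16174305-16174604: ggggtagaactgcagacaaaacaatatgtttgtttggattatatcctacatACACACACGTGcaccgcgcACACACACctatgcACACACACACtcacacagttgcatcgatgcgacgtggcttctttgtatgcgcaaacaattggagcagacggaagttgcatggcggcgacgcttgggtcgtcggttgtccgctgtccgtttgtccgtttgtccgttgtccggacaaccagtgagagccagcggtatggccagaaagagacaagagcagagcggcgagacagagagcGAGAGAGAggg
Ankle2 window, chrX:17570927-17571226: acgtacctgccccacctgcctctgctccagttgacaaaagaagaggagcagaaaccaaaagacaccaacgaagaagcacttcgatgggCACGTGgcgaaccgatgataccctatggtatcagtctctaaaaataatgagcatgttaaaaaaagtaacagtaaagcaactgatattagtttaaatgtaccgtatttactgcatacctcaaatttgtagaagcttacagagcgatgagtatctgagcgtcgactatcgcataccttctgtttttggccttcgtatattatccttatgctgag
chas window, chrX:17698081-17698380: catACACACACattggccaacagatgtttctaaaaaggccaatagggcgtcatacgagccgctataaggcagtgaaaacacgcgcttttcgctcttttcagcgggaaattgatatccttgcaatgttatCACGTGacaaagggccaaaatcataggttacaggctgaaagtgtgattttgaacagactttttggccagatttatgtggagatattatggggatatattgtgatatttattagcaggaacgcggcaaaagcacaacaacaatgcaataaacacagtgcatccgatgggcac
skd window, chr3L:21008774-21009073: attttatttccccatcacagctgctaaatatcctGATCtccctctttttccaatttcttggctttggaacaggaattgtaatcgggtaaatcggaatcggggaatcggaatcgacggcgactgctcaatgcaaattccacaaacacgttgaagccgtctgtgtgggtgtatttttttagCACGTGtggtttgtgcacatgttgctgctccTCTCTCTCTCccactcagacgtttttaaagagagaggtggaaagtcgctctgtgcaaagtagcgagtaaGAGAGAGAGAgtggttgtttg

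A final pair shows the GAGAGAGA repeat in intronic windows of *crol* and *bif*.
crol window, chr2L:11806976-11807275: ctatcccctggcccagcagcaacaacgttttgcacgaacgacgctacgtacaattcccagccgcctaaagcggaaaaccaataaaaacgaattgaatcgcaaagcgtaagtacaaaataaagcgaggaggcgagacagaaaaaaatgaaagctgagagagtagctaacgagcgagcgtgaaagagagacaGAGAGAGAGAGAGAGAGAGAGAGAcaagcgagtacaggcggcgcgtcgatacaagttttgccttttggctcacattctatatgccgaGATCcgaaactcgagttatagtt
bif window, chrX:11686316-11686615: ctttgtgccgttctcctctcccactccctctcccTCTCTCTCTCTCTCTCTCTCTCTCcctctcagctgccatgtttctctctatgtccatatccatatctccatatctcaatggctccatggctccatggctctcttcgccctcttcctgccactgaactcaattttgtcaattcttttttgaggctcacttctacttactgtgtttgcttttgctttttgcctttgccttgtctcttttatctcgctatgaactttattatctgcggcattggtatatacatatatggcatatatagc

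These letters set the scale of what a peak can show. In all 3 lists both ends of each peak were GATC sites, and members held a median of 2.81 GATC sites per kb, against 3.03 for all Psi peaks, 2.14 for all Pol peaks and 2.97 for all Myc peaks. In the windows printed above, the number of GATC sites was 0 or 1, so the position of a protein inside them could not be resolved.

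Members were long stretches in which the 3 peaks lay largely on top of each other. Their median width was 2096 bp, with an interquartile range of 1450 to 3184 bp and extremes of 382 and 8851 bp. A median of 1107 bp of each member lay in all 3 lists, equal to a median of 55.9% of the Psi peak. In 231 members more than 50% of the Psi peak was common to all 3 lists, and in 72 the whole of it was. The most bases common to all 3 lists, 6358 bp in a single stretch, lay within *Sin3A*, the gene of a histone deacetylase corepressor. A single stretch of 5029 bp followed within *ex* (*expanded*, an upstream component of the Hippo pathway), and one of 4382 bp within *Fs* (*Follistatin*, a secreted inhibitor of Activin-type ligands). Over the long non-coding RNA gene *lncRNA:CR44677*, near *CG9300*, 4822 bp were common but were split by a gap between Myc peaks, and the longest unbroken stretch was 3087 bp. The transcriptional regulator *chn* likewise held 4057 bp in all, with 2348 bp unbroken.

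In 10 members the Psi, Pol and Myc peaks had exactly the same ends. They lay at the ecdysone-induced nuclear receptor gene *Eip75B*, the splicing regulator gene *heph*, the transcription factor genes *Sox14* and *bowl*, and at *stx*, *Ae2*, *mas*, *CG34193*, *Tina-1* and *CG43366*. At *heph* this interval spanned 2390 bp, 98.5% of it intron, and at *Sox14* it spanned 2257 bp around the start of the gene. A Pol peak had the same ends as the Psi peak in 47 members, and a Myc peak had the same ends in 47. The Psi peak lay inside a single Pol peak in 117 members and inside a single Myc peak in 143. In 368 members exactly 1 Pol and 1 Myc peak were met, 34 members met more than 1 Pol peak, and 21 met more than 1 Myc peak. Together the members met 445 of the 1568 Pol peaks (28.4%) and 423 of the 1951 Myc peaks (21.7%).

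A few members met the rule only just. In 19, the Psi peak shared a single base with a Pol peak (13 members) or with a Myc peak (10 members). Both overlaps were of 1 bp at *nrv1*, *CrebA*, *Pep* and *CG34417*, and the Pol overlap was 1 bp at *emp*, which encodes a scavenger receptor. In 11 members no base lay in all 3 lists, because the Pol and Myc peaks met the Psi peak at different places. Just outside the rule, a Psi peak in the nuclear receptor gene *Eip78C* (score 1.87) missed the nearest Pol peak by 4 bp, and one in the growth regulator gene *brat* (score 1.97) missed it by 8 bp. A Psi peak at *CG17754* (score 1.78) missed a Myc peak by 6 bp. Of the 1295 Psi peaks that were not members, 15 came within 100 bp of meeting the rule and 89 within 1000 bp.

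Each peak carried a score from the authors' peak caller, which ranks peaks only within its own list. Where a member met several Pol or Myc peaks, the highest score is given. Psi scores of members ran from 1.33 to 3.18 with a median of 1.92, against a median of 1.84 for all Psi peaks. The Pol peaks that met them scored from 0.76 to 2.03 (median 1.28), and the Myc peaks from 1.31 to 5.43 (median 3.13). The highest-scoring Psi peak of the genome that was a member stood at rank 4 of its list, the highest Pol peak at rank 21 and the highest Myc peak at rank 9. The 3 fusions were profiled in separate samples of wing discs with the same driver, and the Myc controls were not those of Psi or Pol. Across the 415 members, Psi and Myc scores had a Pearson's r of -0.04 and a Spearman coefficient of -0.04. Pol and Myc scores had an r of 0.05 and a Spearman coefficient of 0.05. No correlation between Psi and Pol scores was computed, because their lists share a Dam-only sample.

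**Figure D1:**
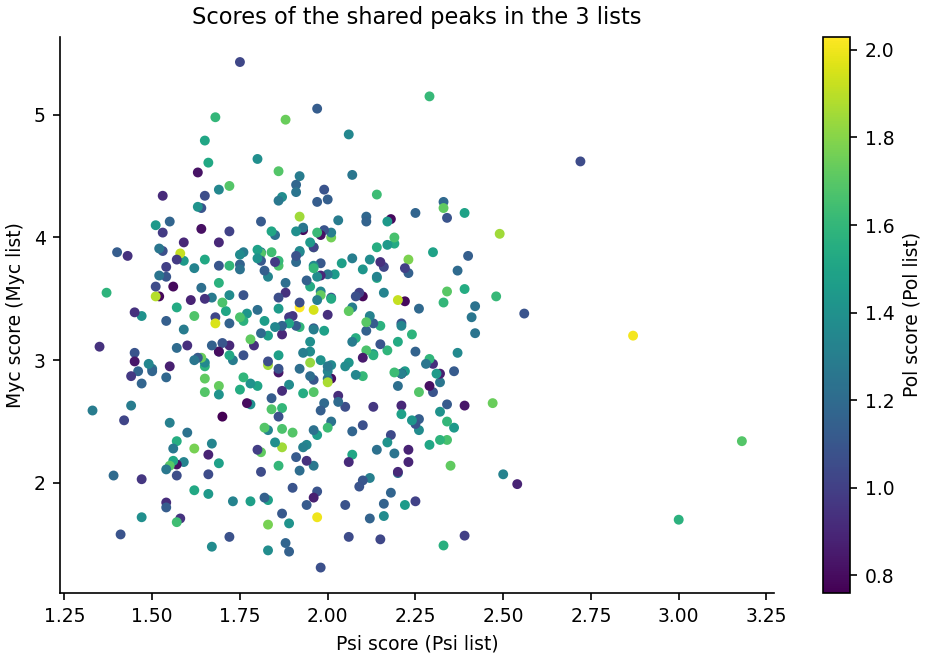
Score of each of the 415 shared peaks in the Psi list (horizontal axis) and of the Myc peak that met it (vertical axis), coloured by the score of the Pol peak that met it; scores have no unit and rank peaks within a list only. Points fill the field without a slope (r = -0.04), and the members at *Psi*, *dob* and *mir-9a* lie apart on the right.

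The highest Psi score, 3.18, fell on the *Psi* gene itself, at a member of 1009 bp that held the start of *Psi* and ran into coding sequence. The Pol peak there scored 1.69 and the Myc peak 2.34. Of its bases, 47.9% were coding, against 2.59% over all members. The Psi-Dam transgene carries the *Psi* open reading frame, so fragments of the transgene and of the endogenous gene cannot be told apart in the Psi list at this place. The member also lay within 1 kb of *eEF1beta*, a translation elongation factor gene.

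The next highest Psi score was 3.00, at *dob* and *Lsd-2*, of which *Lsd-2* encodes a perilipin of lipid droplets. This member was 7044 bp long, but its Myc peak, with a score of 1.70, covered only 777 bp of it. A score of 2.87 followed at the 8303-bp region of *mir-9a*, a microRNA gene that keeps sensory organ precursors in check, where the Pol score was 2.01 and the Myc score 3.20. All 78 bp of the precursor lay in the Psi peak. Its start lay in the Pol peak too but not in the Myc peak, and 1088 bp elsewhere in the member were common to all 3 lists. The member at *Uhg2*, a snoRNA host gene beside *RpS2* and *mtDNA-helicase*, had a Psi score of 2.72 and a Myc score of 4.62, and its 2121 bp lay entirely within all 3 lists. Next came *zld*, the gene of the pioneer factor Zelda, with a Psi score of 2.56, and *pyd*, which encodes a junctional scaffold, with 2.54. Both of these members were wholly intronic.

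The rest of the 15 highest Psi scores lay between 2.39 and 2.50. They included *Svil* (2.50), the gene of an actin-binding supervillin, *ex* (2.48), the RNA export adaptor gene *Ref2* (2.47), the tyrosine kinase gene *Btk* (2.42), *esn* (2.42), the EGF ligand trafficking gene *S* (*Star*, 2.41), *RpL10* (2.40), and the glycolytic gene *Pgk* with its neighbours *Bacc*, *HemK2* and *Snapin* (2.39). At *Ref2* and beside *CG9300*, more than 80% of the Psi peak was also in the Pol and Myc lists (86.6% and 80.6%), whereas at *esn* 11.7% was.

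The 10 highest Pol scores lay between 1.85 and 2.03. The Pol peak at *CycE*, the cyclin that starts S phase, scored 2.03, and its Psi peak 1.92 and Myc peak 3.43. In all, 3509 bp there (93.9% of the Psi peak) were in the 3 lists, with 1773 bp unbroken. The Pol score was 2.00 at *Eip78C* and 1.96 at *ftz-f1*, both nuclear receptor genes, and 1.95 at *kirre*, a cell adhesion gene. *Chsy*, which encodes a chondroitin sulfate synthase, *CG42238*, the fatty acid transport gene *Fatp1* and *mtd* followed, with Pol scores from 1.87 to 1.92. At *Eip78C* and *mtd* the entire Psi peak was intronic and common to all 3 lists.

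The highest Myc score, 5.43, belonged to a member beside *nclb* that overlapped *CG30015*. It was followed by 5.15 at *Hsc70-4*, the constitutive Hsp70 chaperone gene, 5.05 in *foxo*, the transcription factor of the insulin pathway, and 4.98 at *Prps*, which makes the sugar phosphate for nucleotide synthesis, beside the ubiquitin-conjugating enzyme gene *Ubc4*. Scores of 4.96 at *su(sable)*, 4.84 in *bib* (*big brain*, a neurogenic channel protein), 4.79 at the immune factor *Rel* and the folate enzyme *Nmdmc*, 4.64 at *Irk1* and 4.61 at *E(spl)m3-HLH*, a Notch target, completed the 10 highest with *Uhg2*. At *Hsc70-4*, *Prps*, *su(sable)*, *Rel* and *Irk1* the whole Psi peak lay in all 3 lists. In *foxo*, by contrast, 459 bp did, 25.0% of the Psi peak.

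Wider Psi peaks were members more often. In 5 groups of 342 Psi peaks each, ordered by width, the share of members was 9.94% in the narrowest group (7.20 to 13.6), 14.9% in the next, then 26.6% and 27.8%, and 42.1% in the widest (37.0 to 47.4). Ordered by Psi score, the share went from 14.9% to 31.0%. A wider interval has more room to meet other peaks, and the part of width in these shares was not tested. The share of Psi peaks that met a Myc peak was 58.3% of the 712 with a Pol peak (54.6 to 61.9) and 30.7% of the 998 without one (27.9 to 33.6). The share was larger with a Pol peak in each of the 5 width groups, from 54.0% against 28.3% in the narrowest to 60.5% against 40.4% in the widest. These shares describe the lists at hand and have no replicate check.

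**Figure D2:**
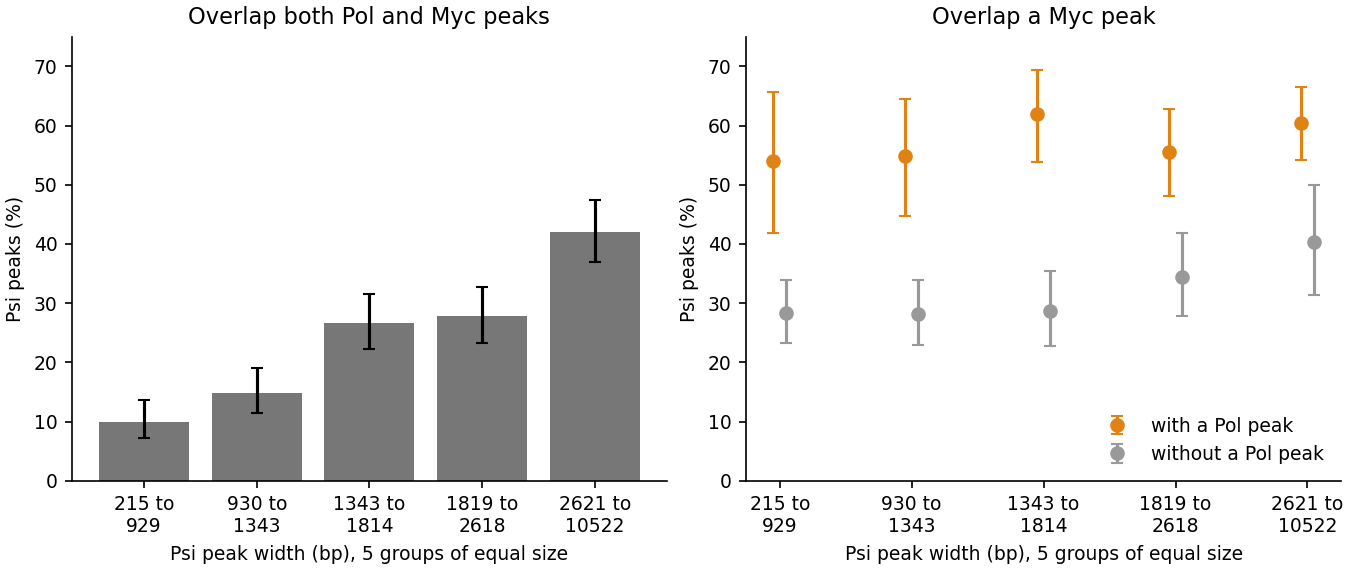
Share of Psi peaks (vertical axes, %) in 5 groups of 342 peaks ordered by width (horizontal axes, bp): left, those that overlapped both a Pol and a Myc peak; right, those that overlapped a Myc peak, separately for Psi peaks with and without a Pol peak. Bars and points are shares and error bars are Wilson 95% intervals; the left share climbs from 9.94% to 42.1%, and the orange points on the right lie above the grey ones in all 5 groups.

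Most bases of members were intronic and few were coding. Over all members, 59.2% of bases lay in introns of protein-coding genes, 9.90% in untranslated exons, 2.59% in coding sequence and 28.3% outside protein-coding genes. The chromosome arms as a whole hold 42.1% intron, 8.03% untranslated exon, 17.1% coding sequence and 32.8% outside. The whole Psi list had nearly the same makeup as the members, with 59.8% intron and 3.29% coding bases. Psi peaks with Pol alone had 64.5% and 2.53%, those with Myc alone 51.6% and 3.98%, and those with neither 61.4% and 4.19%, so this makeup was not particular to the shared peaks. Of the 415 members, 296 held no coding base, 95 were wholly intronic and 91 lay wholly outside protein-coding genes. The Myc peaks that members met had 4.13% coding bases, and the other Myc peaks had 17.2%. The Pol peaks that members met had 3.12% coding bases, and the other Pol peaks 7.65%.

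Of the 415 members, 92 (22.2%, 18.4 to 26.4) held the outermost annotated start of a protein-coding gene. Among the other Psi peaks the share was 11.1% with Pol alone, 14.7% with Myc alone and 4.91% with neither. The Pol peaks that members met held a start in 24.0% (20.3 to 28.2), and the other Pol peaks in 49.7% (46.8 to 52.6). The Myc peaks that members met held one in 29.1% (25.0 to 33.6), and the other Myc peaks in 51.96% (49.5 to 54.5). Within both lists, the peaks at members thus held fewer start sites and less coding sequence than the remaining peaks. The intervals of the start-site shares did not overlap, but no difference was tested. The remaining Pol and Myc peaks include those met by Psi peaks that were not members. The whole Psi list held a start in 11.9% and had 3.29% coding bases, so low values were not particular to the shared peaks.

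**Figure D3:**
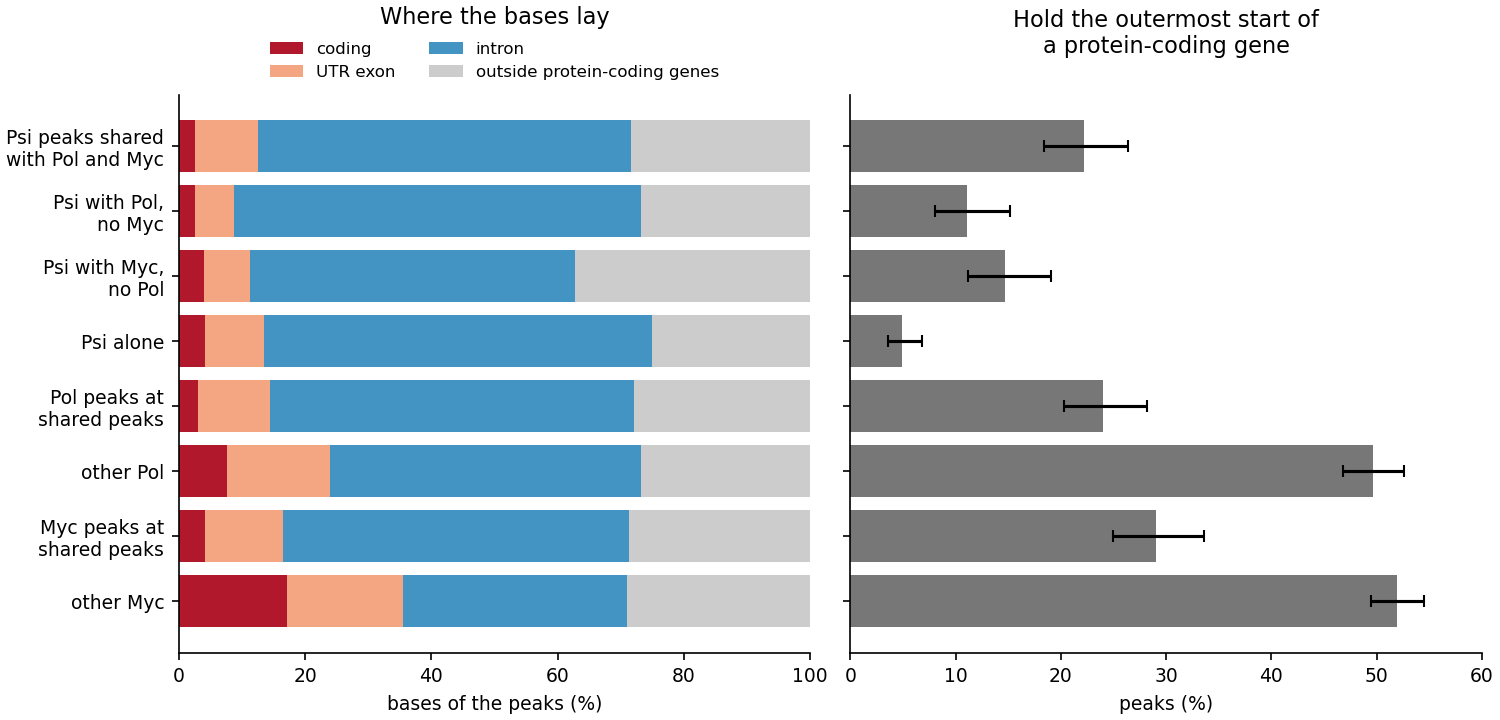
Left, bases (%) of 8 sets of peaks that lay in coding sequence, untranslated (UTR) exon, intron or outside protein-coding genes; right, share of peaks (%) that held the outermost annotated start of a protein-coding gene, with Wilson 95% intervals. The Psi peaks shared with Pol and Myc are 59.2% intron, and the Pol and Myc peaks at them hold a start in 24.0% and 29.1%, below the 49.7% and 51.96% of the other Pol and Myc peaks.

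The median scores of members that held a start were 1.86 (Psi), 1.32 (Pol) and 3.28 (Myc), and a median of 72.0% of the peak lay in all 3 lists. For the 232 members that overlapped a protein-coding gene without holding a start, the medians were 1.96, 1.28 and 3.12, with 56.6% of the peak in all 3 lists. For the 91 members outside protein-coding genes they were 1.87, 1.25 and 3.00, with 46.1% of the peak in all 3 lists.

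Members were spread over the genome. They made up 26.9% of Psi peaks on X (83 of 308), 20.5% on 2L (62 of 303), 24.9% on 2R (80 of 321), 25.4% on 3L (97 of 382) and 24.0% on 3R (92 of 384). The small chromosome 4 held 1 member among 12 Psi peaks, over *mir-954*. The intervals of the 5 long arms overlapped.

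The rule itself places the 3 peaks of a member near each other, so the positions of their centres along genes are a description. Among the 267 members that overlapped exactly 1 protein-coding gene, the centre of the Psi peak lay a median of 4.22 kb from the gene's start, that of the Pol peak 4.19 kb and that of the Myc peak 4.02 kb. The Psi centre was downstream of the Pol centre in 133 members, upstream in 104 and at the same base in 30. Relative to the Myc centre it was downstream in 130, upstream in 103 and equal in 34. The median shift was 0 bp in both cases, and the median distance without regard to direction was 430.5 bp and 378 bp. When the gene was divided into 5 equal parts, 99 Psi centres fell in the first part, 54 in the second, 50 in the third, 30 in the fourth and 5 in the last, while 24 lay before the start and 5 past the end. The last part of the gene held 3 Pol and 3 Myc centres.

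Of 357 protein-coding genes of at least 2 kb within 1 kb of a member, 24.6% had their outermost start in the member (20.5 to 29.4), 30.0% in a Pol peak that met it and 34.5% in a Myc peak that met it. For 16.5% the start lay in all 3, and for 59.9% it lay in none of them. When every annotated transcript start was counted, the shares became 41.5%, 45.9% and 49.0%, so these values depended on which start was counted. Over the whole Psi list, 20.2% of such genes (17.7 to 23.0) had their outermost start in a Psi peak. The share was 50.3% in a Pol peak over the whole Pol list, and 47.0% in a Myc peak over the whole Myc list.

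Members lay near 419 of the 13945 annotated protein-coding genes (3%), taking a gene as called when a peak was within 1 kb. For comparison, a Psi peak was called at 7.92% of genes, a Pol peak at 13.6% and a Myc peak at 19.2%. The genes at members were long, with a median of 11.6 kb against 2.17 kb for all protein-coding genes, 9.79 kb for those with a Psi peak, 5.13 kb with a Pol peak and 3.58 kb with a Myc peak. In the longest of 5 length groups 9.75% of genes had a member, and in the shortest 0.789% did. A long gene offers more bases to meet a peak. The median length of the lists below ran from 1.34 kb (cytoplasmic ribosomal proteins) to 36.6 kb (ecdysone response). It is given for some lists only, and the share of a single list is not adjusted for length.

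Of the 415 members, 324 overlapped a protein-coding gene, 267 of them exactly 1, and 71 had no protein-coding gene within 1 kb. Most genes had a single member (380 genes), while 31 had 2 and 7 had 3. Those with 3 were the Notch ligand gene *Delta*, the receptor gene *Egfr*, the cell cycle factor gene *E2f1*, the growth inhibitor gene *Tgi* (*Tondu-domain-containing Growth Inhibitor*, a partner of Scalloped), the ecdysone-induced transcription factor gene *br* (*broad*), the zinc-finger gene *lola*, and *ogre*, which encodes an innexin of gap junctions. *Mur2B* had 4, but it overlaps *br* on the other strand and 3 of the 4 were those of *br*.

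At *Delta* the 3 members had Psi scores of 2.07, 2.16 and 2.04 in order from the start, Pol scores of 1.51, 1.33 and 1.47, and Myc scores of 2.23, 3.55 and 3.79. All of them lay between 3.33 and 19.8 kb from the start, and the start itself lay in no peak of the 3 lists. At *E2f1* the Psi scores were 1.95, 1.83 and 1.44 along the gene and the Pol scores 1.44, 1.85 and 1.29, while the first Pol and Myc peaks of the gene, near its start, met no Psi peak. At *Egfr* the members scored 2.10, 1.60 and 1.79 in the Psi list and spanned 18.1 to 24.3 kb from the start. The last of them met its Myc peak at 1 bp only. At *lola*, a gene of 61.4 kb, all 3 members ended within 9.60 kb of the start, and the first held the start in all 3 lists.

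**Figure D4:**
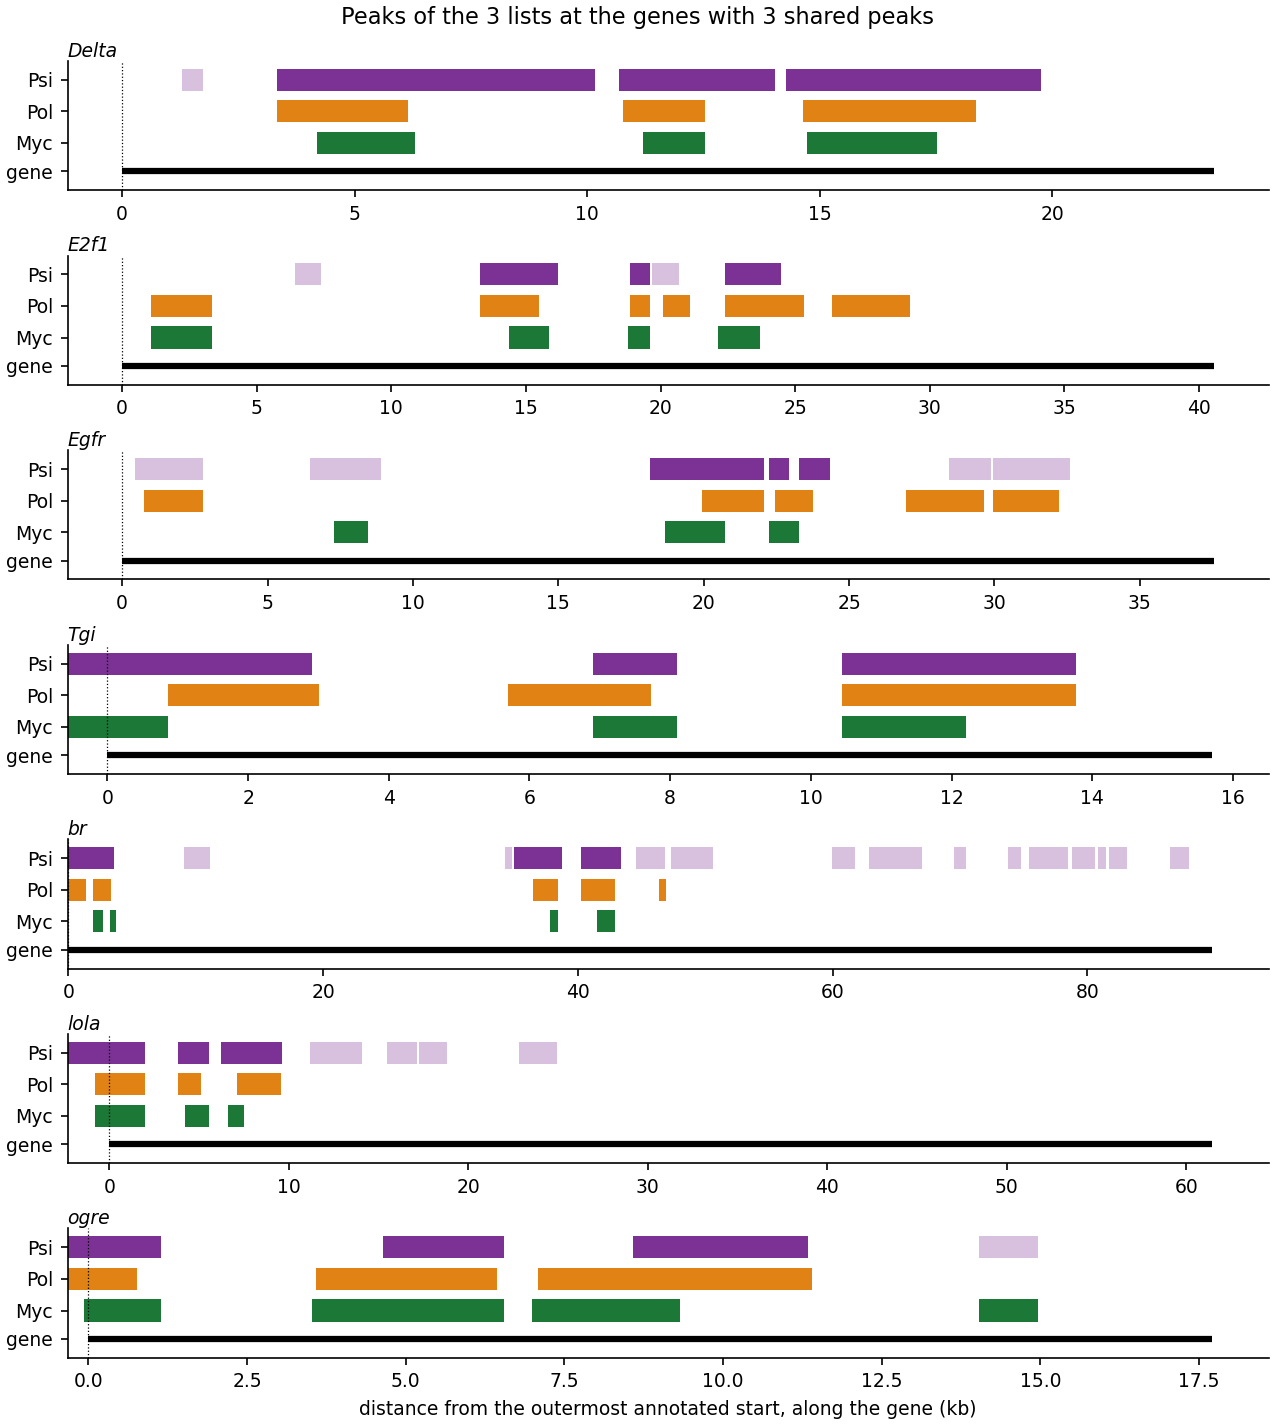
Peaks of the Psi (purple), Pol (orange) and Myc (green) lists at the 7 genes with 3 shared peaks, by distance from the outermost annotated start in the direction of transcription (horizontal axes, kb, a separate scale for each gene); the black line is the gene. Full purple marks the shared Psi peaks and pale purple the other Psi peaks; at *Delta* no peak covers the start, and at *lola* the shared peaks end within 9.60 kb of the start.

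Of the 546 genes in 26 lists of pathways and gene families, 79 (14.5%) had a member, against 3% of all protein-coding genes. The lists were drawn up with earlier results of these data known and hold longer genes than average (median 5.37 kb), so this share is a description. Restricted to the longest of the 5 length groups, it was 60 of 255 (23.5%), against 9.75% of all genes of that length.

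Ecdysone is the steroid that times larval moults and metamorphosis, and its response genes had the highest share of members, 8 of 18 (44.4%), with a median length of 36.6 kb. The receptor gene *EcR* had a member in its introns with a Psi score of 2.33, a Pol score of 1.60 and a Myc score of 3.47. The 3 centres there were between 21.3 and 21.6 kb from the start. The early genes *br*, *Eip75B* and *Eip74EF* had highest member scores of 2.32, 2.14 and 1.90 in the Psi list. *Eip78C*, *ftz-f1*, *ImpE1* and *ImpE2* were the others. The member at *ImpE2* was centred upstream of the start, and no Pol peak lay within 1 kb of that gene. At *ftz-f1* the member covered the start in all 3 lists and 79.0% of its bases were untranslated exon, whereas at *EcR* and *Eip78C* it was wholly intronic.

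The Hippo pathway, which restrains growth through the coactivator Yorkie, had members at 6 of its 20 genes (30.0%). They were the upstream regulators *ex*, *ft* and *ds*, the DNA-binding partner gene *sd*, and the targets *Diap1* and *mir-ban*. At *ex* the large member in the gene body had scores of 2.48 (Psi), 1.61 (Pol) and 3.52 (Myc). A second member over the start of *ex* scored 2.00, 1.14 and 4.31, and a single base was common to all 3 lists there. At *ft*, the atypical cadherin Fat, 3859 bp of a member that held the start were common to all 3 lists, with 2187 bp unbroken. *Diap1*, which blocks caspases, had 2 members with Psi scores of 2.25 and 2.08. The bantam microRNA gene *mir-ban* lay in the Psi peak of its member (score 2.32), but its start lay in neither the Pol nor the Myc peak. Because *sd* is also the gene whose enhancer trap drives GAL4, its 2 members (Psi scores 2.08 and 1.89) are noted with that fact.

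In the Dpp and BMP pathway, 5 of 24 genes (20.8%) had a member. The receptor gene *tkv* had 2, with Psi scores of 2.14 and 2.29, and the inhibitory Smad gene *Dad* had 2, with 1.85 and 2.31. At *Dad* one lay over the start in all 3 lists and the other 6.95 kb into the gene. *tok*, which encodes a BMP-processing protease, had a member 0.89 kb from its start with scores of 1.95 (Psi), 1.53 (Pol) and 3.60 (Myc). The remaining genes were *shn*, a transcription factor of the pathway, and *cv* (*crossveinless*). Among 12 Dpp target genes, *Dad* and *bi* (*optomotor-blind*) had members, while 9 had a Psi peak, 8 a Pol peak and 3 a Myc peak.

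In the Wg pathway 4 of 25 genes (16%) had a member: the co-receptor gene *arr*, the receptor genes *fz2* and *fz3*, and the feedback gene *nkd*. At *fz2* the member lay 69.6 kb from the start of a 94.4-kb gene, with scores of 2.39, 1.00 and 1.57. At *nkd* the Psi and Myc peaks held the start and the Pol peak did not. In the Hedgehog pathway 3 of 15 did (20%): the ligand gene *hh* (Psi score 2.18), its receptor gene *ptc* (1.69, with 2100 bp common to all 3 lists) and *rdx*, which targets Ci for breakdown (1.72).

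In the Notch pathway 5 of 24 genes (20.8%) had a member. Beside *Delta*, the receptor gene *N* had 2, with Psi scores of 2.06 and 2.32, Pol scores of 1.05 and 1.58 and Myc scores of 1.56 and 2.35. These Myc scores lay below the median of members (3.13). *E(spl)m3-HLH* and *E(spl)mbeta-HLH*, target genes of Notch, were also near members, the latter through a Pol peak that the Psi peak met at 1 bp. The glycosyltransferase gene *fng* had a member upstream of its start, outside the gene. In the EGFR pathway 5 of 20 did (25.0%): *Egfr*, *S*, the repressor genes *aop* and *cic*, and the MEK kinase gene *Dsor1*, whose member lay beside it in *CG17754*. At *cic* the Pol score was 1.85 and the Myc score 4.17, with 2993 bp common to all 3 lists. At *aop* one of its 2 members had no base common to all 3.

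Of 40 wing patterning genes, 5 (12.5%) had a member, though 24 had a Psi peak, 18 a Pol peak and 13 a Myc peak. These were *Dll*, *hth*, *bi*, *sd* and *Bx*. *Bx* (*Beadex*, a LIM-only protein that limits Apterous) had 2, one centred 0.96 kb past its start with a Myc score of 3.91 and one 23.5 kb into the gene with a Psi score of 2.34 and 3091 bp in common. The annotated start of *Bx* is also that of *HisRS*, so the member near it cannot be assigned to *Bx* alone. Of 8 marker genes of wing disc epithelium, *sd*, *Bx* and *Dll* had a member and 7 had a Psi peak. No member lay near any of the 5 myoblast, 4 haemocyte, 2 tracheal, 4 neuronal or 3 fat body markers. With a member at 3% of all protein-coding genes, so few markers can well have none. Of the myoblast markers, 2 had a Psi peak, 2 a Pol peak and 2 a Myc peak. Of the tracheal markers 1 had a Psi and 1 a Pol peak, and of the neuronal markers 1 had a Pol and 2 a Myc peak. The haemocyte and fat body markers had no peak in any of the 3 lists.

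Of 88 cytoplasmic ribosomal protein genes, 8 (9.09%) had a member, although none of the 88 belonged to the longest of the 5 length groups, and 55 had a Myc peak, 23 a Psi peak and 23 a Pol peak. The members at *RpL10* and *RpL15* overlapped the gene, with Psi scores of 2.40 and 1.98, and so did the one at *RpL21* (1.88). Those near *RpS2* (2.72) and *RpL17* (2.29) lay beside the gene and did not overlap it. Of 28 translation factor genes, only *eEF1beta* (3.57%, against 3% of all protein-coding genes) had a member, the one at *Psi*.

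Among cyclins, Cdks and mitotic regulators, 3 of 22 genes (13.6%) had a member. Besides *CycE* they were *CycY* and *stg*, the Cdc25 phosphatase that starts mitosis. The member at *stg* scored 2.17 in the Psi list, 1.44 in the Pol list and 3.94 in the Myc list. It lay outside the gene, centred 1.78 kb upstream of the start, and no base was common to all 3 lists. The Myc peak held the start of *stg*, whereas the Pol peak that met the member was not within 1 kb of the gene. The member near *CycY* was the one in *crol*, which *CycY* neighbours. *E2f1* and *Diap1* were the 2 of 17 genes of the E2F and Rbf list. In the insulin and TOR list *foxo* and *Pdk1* were 2 of 21.

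Of 19 genes for Psi and hnRNP proteins, 5 (26.3%) had a member: *Psi*, *sqd*, *Syp*, *heph* and *Imp*. *sqd* had scores of 2.18 (Psi), 0.79 (Pol) and 4.15 (Myc), and *Syp* 1.96, 1.69 and 3.92. Of 21 SR protein and splice-site factor genes none had a member, including *SF1*, *Saf-B* and *B52*, against 3% of all protein-coding genes. Of these 21, 3 had a Psi peak, 4 a Pol peak and 9 a Myc peak. The first list has a median length of 11.4 kb and the second of 3.59 kb, and the difference was not tested.

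Chromatin and cytoskeletal genes held further members. In the Polycomb and trithorax list 4 of 27 (14.8%) did: *lola*, *psq*, *ph-d* and *ph-p*, the last pair being neighbouring copies of *polyhomeotic*. Their Psi scores were 2.21 and 2.01. None of 13 insulator protein genes, with a median length of 3.42 kb, had a member, against 3% of all protein-coding genes. At that share a list of 13 genes can well have none. Of these genes, 3 had a Psi peak, 6 a Pol peak and 3 a Myc peak. In the actin and myosin list 5 of 28 (17.9%) did. The spectrin gene *kst* had a Psi score of 2.34, *Moe* (moesin) had 2 members with 2.25 and 1.55, and the profilin gene *chic* had 1.86. *mbc* and *cher*, a filamin gene, were the others. Of 30 cell adhesion and guidance genes, *caps*, *Ten-m*, *kirre* and *sli* had members (13.3%). The planar polarity list had 3 of 15, the JAK-STAT list 2 of 13 (*ken* and *Stat92E*), the proneural list 2 of 15 (*chn* and *E(spl)mbeta-HLH*), the Hox list 1 of 10 (*hth*), the JNK list 1 of 14 (*wgn*) and the Myc network 1 of 10 (*pont*). The member near *pont* lay beside the gene and did not overlap it.

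**Figure D5:**
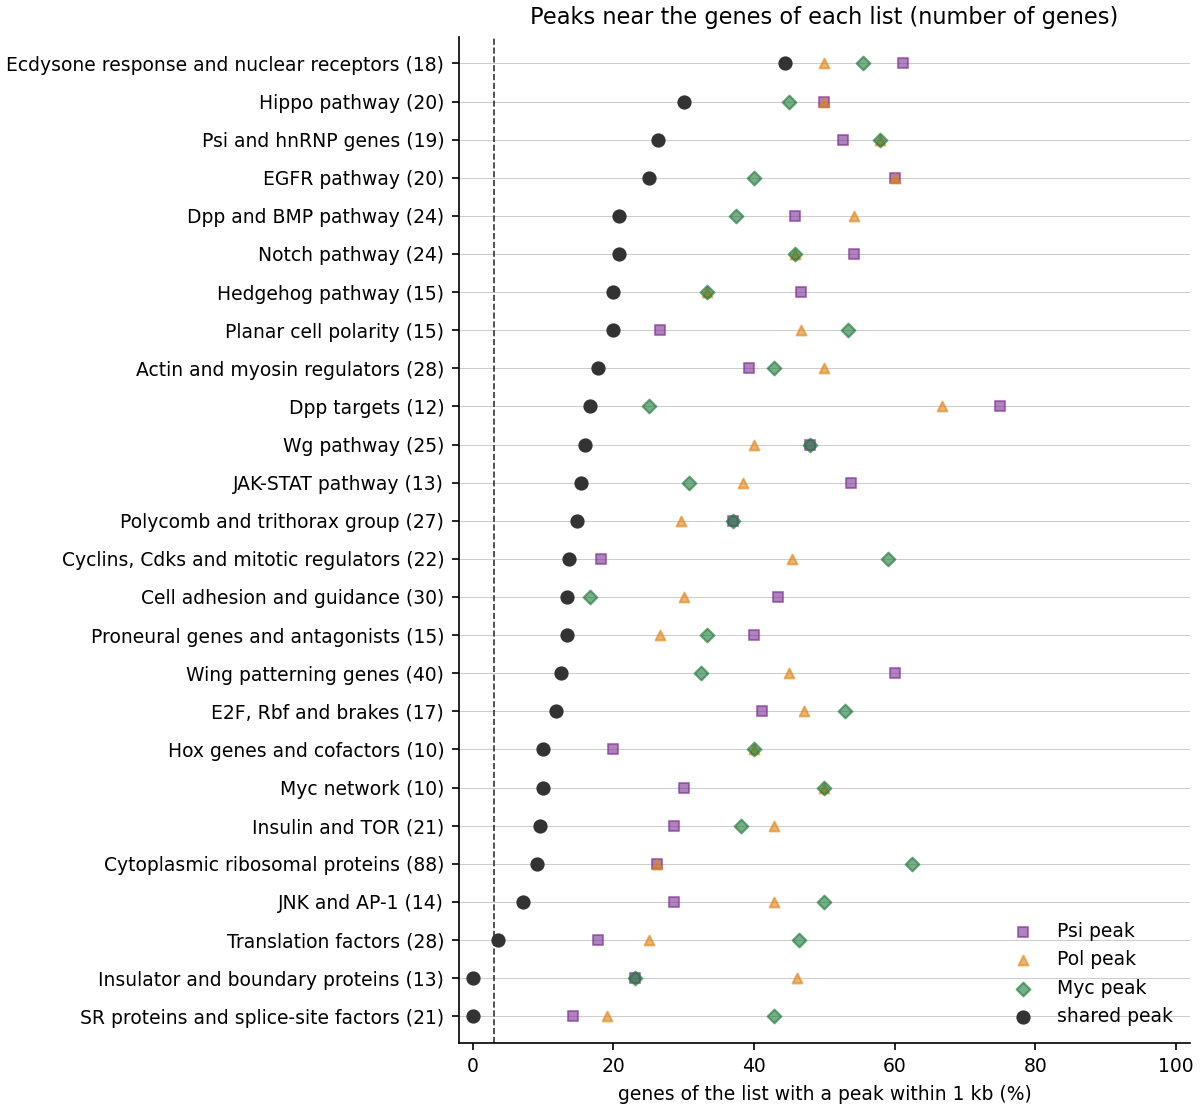
Share of the genes of each of 26 lists (horizontal axis, %) that had a shared peak (circles), any Psi peak (squares), Pol peak (triangles) or Myc peak (diamonds) within 1 kb; the number of genes stands in brackets. The dashed line is the 3% of all protein-coding genes with a shared peak; ecdysone response genes lie highest with 44.4%, and 2 lists have none.

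Of 13 genes that the study singles out, 7 had a member, against 3% of all protein-coding genes. Most of them were taken up by the study on account of Psi binding in these same samples, so the share is no independent evidence. The 7 were *stg*, *tok*, *chic*, *fz2*, *emp*, *Exn* and *Psi*. *Exn* (*Ephexin*) had scores of 1.65, 1.52 and 3.82, with the entire 2355-bp member in all 3 lists. At *chic* the Pol peak held the start, while the Psi and Myc centres lay 3.08 kb into the gene. *Myc* itself had none: its best scores were 2.09 (Psi), 1.32 (Pol) and 4.12 (Myc), but no Psi peak there met both of the others. Wherever a Myc peak there holds coding sequence, fragments of the Myc-Dam transgene and of the endogenous gene cannot be told apart. The glypican genes *dally* and *dlp* had Psi and Pol peaks and no Myc peak.

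Of all 23973 annotated features, transposable elements included, 596 (2.49%) had a member within 1 kb. Among them were 83 of 1944 long non-coding RNA genes (4.27%), 11 of 503 antisense RNA genes, 10 of 269 snoRNA genes, 8 of 260 microRNA precursors, 6 of 290 tRNA genes and 41 of 5809 transposable elements. None of 99 rRNA, 32 snRNA and 268 pseudogene entries had one. Members overlapped 6 microRNA precursors: *mir-9a*, *mir-ban*, *mir-9377* inside *Tis11*, *mir-279*, *mir-8* and *mir-954*. The Myc scores at *mir-279* and *mir-8* were 4.51 and 3.88. They overlapped 9 snoRNA genes, among them *snoRNA:U14:30Ea*, *snoRNA:U14:30Eb*, *snoRNA:Me18S-G1620* and *snoRNA:Me18S-A1576* in *Uhg2*, and *snoRNA:lola-a*, *snoRNA:lola-b* and *snoRNA:lola-c* in *lola*. They overlapped no tRNA gene. Within 1 kb, 2.07% of tRNA genes had a member, 7.24% a Psi peak and 44.8% a Pol peak. Over all annotated features these shares were 2.49%, 6.78% and 10.9%, so the tRNA shares of members and of Psi peaks were near the background. Peaks of some kilobases cannot separate a small RNA gene from its host or neighbour.

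The sequence of the stretches common to all 3 lists was compared with windows of the same length. In 368 members the common stretch was at least 300 bases, and its central 300 bases had a median GC content of 43.3%, against 42.0% over all windows of the arms. CACGTG, its own reverse complement, was present in 14 of them (3.8%, 2.28 to 6.28), and in 3.52% of all 445433 windows of the arms. The centres of all Myc peaks held it in 8.60%. Taking the Myc list alone, the centre of the Myc peaks at members held CACGTG in 4.51% (2.91 to 6.94) and that of the other Myc peaks in 9.74% (8.34 to 11.3). Among Myc peaks with a start site these shares were 7.32% and 10.7%, and among those without one 3.36% and 8.64%. The lower share at members was thus seen in both groups, with overlapping intervals where a start site was present.

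GAGAGAGA or its complement was present in 7.88% of the common windows (5.54 to 11.1) and in 1.68% of all windows of the arms. The centres of all Pol peaks held it in 4.22% and those of all Myc peaks in 3.94%, so a share above that of the arms was not particular to the members. At the centre of the Psi peak itself, 4.58% of members held it, against 3.59% of all Psi peaks, so the value depended on which window was read. ACACACAC or its complement was present in 11.1% of common windows and 5.28% of all windows. The centres of all Pol peaks held it in 10.3%, those of Pol peaks not met by members in 10.2%, and those of Psi peaks with Pol alone in 8.75%, so a raised share was not particular to the members. TATCGATA, the core of the DNA replication-related element, was in 0 of 368 common windows, with a Wilson upper bound of 1.03%, and in 0.848% of all windows. At the centre of the Myc peaks not met by members it was in 4.37%, and at those of members in 0.475%. Among Myc peaks with a start site these shares were 7.07% and 0.813%. Among those without one they were 1.39% and 0.336%, with overlapping intervals. The centres of all Psi peaks held it in 0.354%, so a low share was not particular to the members. Matches of these letters are a description of the DNA and do not show binding.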

How the data were processed

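Genomic DNA from wing discs that expressed Psi-Dam, Myc-Dam, Pol-Dam or Dam alone was sequenced. The authors aligned reads to BDGP6 with Bowtie2 through damidseq_pipeline, took the normalised log2 ratio to Dam alone, averaged the 3 samples of a fusion and called peaks at an FDR of 1% with find_peaks. Versions of these tools, like the formula of the score, were not given in the sources used here, so scores were compared only within a list. Each of the 3 deposited peak lists gives a position, a score and an FDR. Samples were grouped by title, because a description label that reads as RNAi or control conflicts with title and design. Averaging leaves no replicate error, and read depth is unknown. The number of unmapped columns was 0.

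Overlaps, distances to genes (1 kb), annotation and motif counts were computed in Python 3.11.15 with pandas 2.3.3, numpy 2.4.6 and, for the intervals and rank correlations, scipy 1.17.1. Plots were drawn with matplotlib 3.10.9. The overlap code was tested on simulated data, with 0 wrong answers among 2000 intervals. Genes came from Ensembl release 115, and sequence from the RefSeq copy of release 6 of the genome. A gene's start is its outermost annotated start, which need not be the one in use. Members and gene lists were chosen with earlier results of these data known, and gene lists overlap.

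The genes named were those within 1 kb of the 15 members with the highest Psi score and of the 10 with the highest Pol and Myc scores, up to 10 with most members, those at the 10 members with most bases in all 3 lists, up to 5 per list, those the study singles out, and up to 10 overlapped RNA genes. List genes beyond 5 per list, genes at the limits of the rule or at peaks with the same ends, *mir-279*, *mir-8*, *mir-954*, *mir-9377* and the *crol* and *bif* windows were chosen after their values were seen. Alternatives were an FDR of at most 0.1%, other overlaps, merged peaks, other gene distances, other start sites and another window.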

Additional observations from a re-analysis of the deposited data

How the results depend on the processing

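An FDR of at most 0.1% in all 3 lists left 221 members, 248 protein-coding genes and 52 list genes, in place of 415, 419 and 79. When Pol and Myc peaks each had to cover 50% of the Psi peak, 253 members were left. Overlaps of at least 200 bp (391), a base in all 3 lists (404), merging peaks under 500 bp apart (402) or the 5 long arms alone (414) kept the count within 1.5 times. With any transcript start, the shares of genes with the start in the Psi, Pol and Myc peak were 41.5%, 45.9% and 49.0% in place of 24.6%, 30.0% and 34.5%. GAGAGAGA at the centre of the Psi peak was in 4.58% of members in place of 7.88%. These settings narrow the rule, count more starts or read another window, and the cause of the shifts was not tested. Genes near members numbered 341 with overlap and 482 within 2 kb, and list genes 68 and 85. CACGTG at the centre of the Psi peak was in 2.65% of members in place of 3.8%, TATCGATA in 0.482% in place of 0% and ACACACAC in 9.88% in place of 11.1%. The alternatives not listed here moved by less than the counting interval or 1.5 times. No paired analysis was possible because the lists were called on averages and hold no replicate. Regions below the FDR threshold are not in the lists, so a Psi, Pol or Myc signal under it cannot be read as absent.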
